A study of Mus musculus with 20 samples.

Results

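The endothelin system is described here as it was measured in the retinas of Nrl-/- mice: the ligand genes Edn1, Edn2 and Edn3, the converting enzyme gene Ece1, and the receptor genes Ednra and Ednrb. Members were the probe sets that the platform annotation names to these 6 genes. It named 58 probe sets to 5 of them, of 179496 probe sets with a single gene and 15781 genes on the array. Ednra had none, and is not analysed here. Edn1 and Edn3 had 7 probe sets each, Edn2 had 10, Ednrb had 15 and Ece1 had 19. All 5 genes were above the filter on dim genes, which left out the dimmest 25% of genes and kept 11835.

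Nrl encodes a transcription factor needed to make rods, and a retina without it has cone-like photoreceptors in their place. Every mouse was Nrl-/- on the C57Bl/6J background, and there was no wild-type group. Mice were 1, 2, 4, 6 or 10 months old, with 4 mice at each age, and the pair of retinas of a mouse made 1 sample on 1 of 20 Affymetrix exon arrays. The title of the series names the loss, remodelling and later preservation of cones in this retina, so each comparison asks how the endothelin genes stood at each age against the young retina at 1 month.

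Endothelins are short peptides cut from longer precursors. Endothelin-converting enzyme, the product of Ece1, makes the last cut, and the peptides then act on a pair of G protein-coupled receptors, of which the A type prefers endothelin-1 and endothelin-2 while the B type binds all ligands. In the retina, endothelin-1 is known as a constrictor of vessels, endothelin-2 as a peptide made by stressed photoreceptors, and the B type receptor as a receptor of Müller glia, astrocytes and vessels.

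The arrays differed little in brightness: their medians lay between 7.76 and 7.78 on the log2 intensity scale in which all levels are given. The cone genes Opn1sw (short-wave opsin) and Gnat2 (cone transducin) were at 13.49 to 13.77 and 12.87 to 13.08 over the 20 arrays. Nrl was at 5.97 to 6.53 over its 6 probe sets, which may lie in or outside the deleted part and so check nothing. The Y-linked genes were low on every array of 2 months (mean level 4.00 to 4.28) and on replicates 2 and 3 of 10 months (4.13 and 4.42), and high on all others (7.33 to 8.28), so sex differed between the ages. Only at 10 months did this level vary widely within an age. Fits with this level as a covariate therefore rest mainly on the 10-month arrays. In whole retinas, fewer cells of a type and less RNA per cell cannot be told apart. A difference is called when its adjusted p, from limma with the Benjamini-Hochberg method over all genes tested, was under 0.05. All comparisons against 1 month share the same 4 arrays.

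The promoters of Ednrb and Edn1 are shown because these receptor and ligand genes had the clearest changes with age, one from 2 months on and the other at 10 months alone. Each run is the 250 bases before the annotated start, 5′ to 3′ on the gene's own strand, from RefSeq on GRCm38.p6. Capitals mark matches to any of the motifs searched. Ednrb lies on the minus strand at chr14:103843702-103843951 and Edn1 on the plus strand at chr13:42301226-42301475.
Ednrb: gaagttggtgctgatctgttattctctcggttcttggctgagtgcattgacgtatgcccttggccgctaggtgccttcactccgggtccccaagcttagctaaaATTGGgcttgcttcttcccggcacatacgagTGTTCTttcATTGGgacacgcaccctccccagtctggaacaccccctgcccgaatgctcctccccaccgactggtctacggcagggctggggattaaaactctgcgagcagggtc
Edn1: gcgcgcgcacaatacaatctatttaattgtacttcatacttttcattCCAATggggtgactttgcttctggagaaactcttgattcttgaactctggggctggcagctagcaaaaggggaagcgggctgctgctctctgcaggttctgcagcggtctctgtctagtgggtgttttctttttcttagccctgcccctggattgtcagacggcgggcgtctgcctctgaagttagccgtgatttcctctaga
The motifs were searched on both strands, in these 250 bases and in the same window of all 32817 promoters. The CCAAT box (CCAAT) was in 33.8% of promoters, the GC box (GGGCGG) in 32.7%, the TATA box (TATAAA) in 12.4% and the AP-1 element (TGANTCA) in 6.75%. The hypoxia response core (ACGTG) was in 16.6%, a glucocorticoid half-site (AGAACA) in 16.1% and a GATA element (TTATCT) in 9.99%. The Ednrb window held the CCAAT box as its reverse complement starting 146 and 106 bases before the start, and between them the reverse complement of the glucocorticoid half-site at 115 bases. The Edn1 window held a single CCAAT box at 203 bases. Neither window held the letters of the other motifs.

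By the F test over the 5 ages, 4 of the 5 endothelin genes with probe sets differed by age (Edn1, Edn3, Ece1 and Ednrb), beside 38.4% of all genes tested. Their adjusted p-values in that test were 2.55e-05 for Edn1, 0.000926 for Ednrb, 0.0206 for Edn3, 0.0246 for Ece1 and 0.598 for Edn2. Leaving out single arrays cost Ece1 its call without replicates 1 or 4 of 10 months or replicates 1 or 3 of 2 months, and Edn3 without replicates 1 or 3 of 10 months, while Edn1 and Ednrb were called in all 20 such fits. Against 1 month, Ednrb was the 1 gene called at 2, 4 and 6 months, beside 8.52%, 15.2% and 16.4% of all genes, and Edn1, Edn3 and Ednrb were called at 10 months, beside 41.4%. All of these calls were rises, and the share of all genes called higher was 3.3%, 6.9%, 7.89% and 20.6% at 2, 4, 6 and 10 months.

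**Figure D1:**
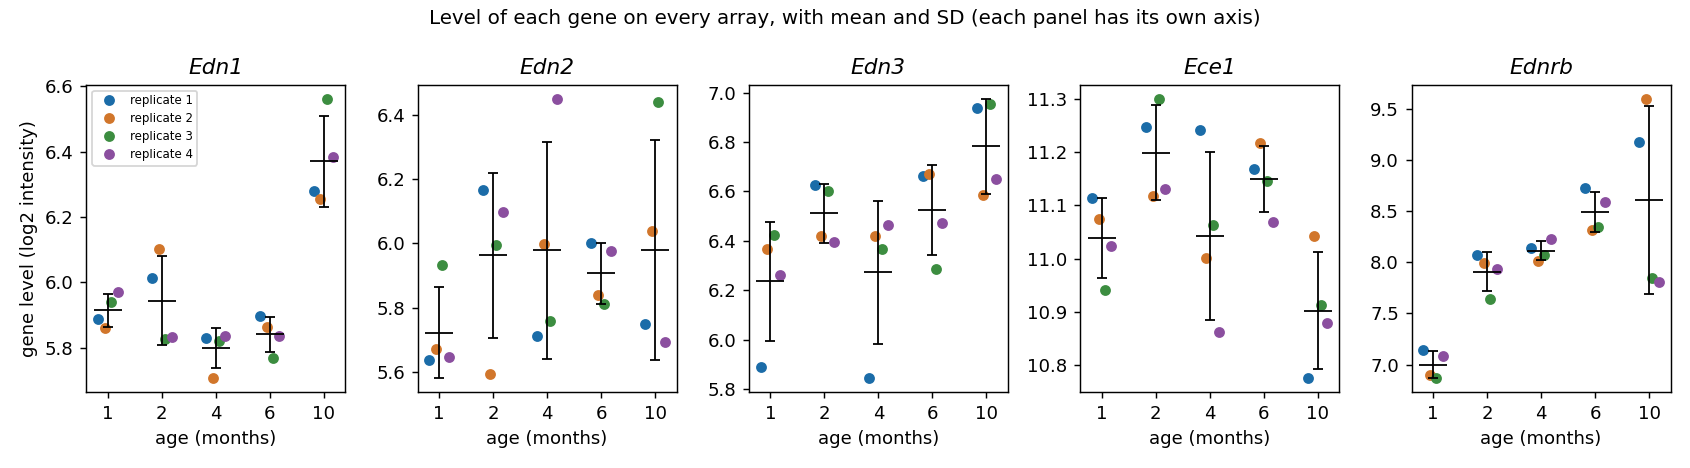
Gene level (log2 intensity) of Edn1, Edn2, Edn3, Ece1 and Ednrb on each of the 20 arrays, by age in months; coloured points are replicates 1 to 4 of an age, which are different mice, and black bars are the mean and SD of 4. Edn1 stands apart at 10 months, Ednrb lies lowest at 1 month in all 4 mice, and the 4 arrays of 10 months fall into a high and a low pair for Ednrb.

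Edn1 encodes endothelin-1, the main vasoconstrictor peptide of the family. Its levels at 1 month were 5.89, 5.86, 5.94 and 5.97 in replicates 1 to 4, and at 10 months 6.28, 6.26, 6.56 and 6.38. From 2 to 6 months the 12 arrays lay between 5.71 and 6.10. All 4 mice of 10 months were therefore above all 16 younger mice. The rise was 0.46 ± 0.07 (log2, SE) over 1 month, a 1.37-fold change with adjusted p = 4.23e-05. Against 2, 4 and 6 months it was 0.43, 0.57 and 0.53, with adjusted p of 0.000155, 1.77e-05 and 3.65e-05. Among all genes, 31%, 21.9% and 20.3% were called in those comparisons.

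At the younger ages the Edn1 levels lay close together. In ascending order the means were 5.80 at 4 months, 5.84 at 6 months, 5.91 at 1 month and 5.94 at 2 months, and no neighbours in that order were called (adjusted p = 0.926, 0.546 and 0.857). The smallest and the largest mean among these ages differed by 0.15 (adjusted p = 0.621). Edn1 was dim: its mean level stood above that of 29.7% of all genes, and 3 of its 7 probe sets were above the filter on dim probe sets. Over the 7 probe sets the 10-month change over 1 month ran from -0.01 to 0.81, with 6 above 0. Of the 3 that were tested, 4452800 was called higher (0.49, adjusted p = 0.0339), beside 9.61% of all probe sets. The others, 4771984 and the brightest, 4685355, changed by 0.36 and 0.27 and were not called (adjusted p = 0.101 and 0.164).

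Endothelial cells are a known source of Edn1. Of 13 endothelial marker genes tested, 1 was called higher and 6 lower at 10 months against 1 month, beside 20.6% and 20.8% of all genes. The mean level of the list was 7.70 to 7.85 on the arrays of 1 month and 7.43 to 7.58 on those of 10 months, with no overlap. The endothelial list was thus lower at 10 months than at 1 month, while Edn1 was higher. The list was also low at 4 and 6 months (7.40 to 7.52 and 7.35 to 7.47), where Edn1 was not raised. At those ages 7 and 8 of the 13 genes were called lower, beside 8.26% and 8.52% of all genes. At each of them 1 was called higher, beside 6.9% and 7.89%. The part of the endothelial list in the Edn1 result was not tested. Of 10 genes of pericytes and smooth muscle, 4 were lower at 10 months, beside the same 20.8%.

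Edn2 encodes endothelin-2, the ligand that stressed photoreceptors are known to make. Its levels were 5.64, 5.67, 5.93 and 5.65 at 1 month and 5.75, 6.04, 6.44 and 5.69 at 10 months. The arrays of 2, 4 and 6 months ran from 5.59 to 6.17, from 5.71 to 6.45 and from 5.81 to 6.00. No pair of ages was free of overlap. The changes against 1 month were 0.24, 0.26, 0.19 and 0.26 at 2, 4, 6 and 10 months (SE 0.17, adjusted p = 0.436, 0.33, 0.509 and 0.222). The 95% interval of the 10-month change ran from -0.09 to 0.60; a rise of that size would not have been resolved. The gene was dim, above 28.9% of all genes, and 3 of its 10 probe sets were above the filter. Those 3 had changes of -0.15 to 0.38 at 10 months, with adjusted p of 0.359 or more in limma over all probe sets, and 0 of them had an unadjusted p under 0.05.

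Edn3 encodes endothelin-3, known best as the ligand that neural crest cells need through the B type receptor. Its levels were 5.89, 6.37, 6.42 and 6.26 at 1 month, 5.84, 6.42, 6.36 and 6.46 at 4 months, and 6.94, 6.58, 6.96 and 6.65 at 10 months. The 10-month mice lay above all mice of 1 and of 4 months, but overlapped those of 2 months (6.40 to 6.63) and of 6 months (6.29 to 6.67). The rise at 10 months was 0.55 ± 0.14 over 1 month (1.46-fold, adjusted p = 0.00396) and 0.51 ± 0.14 over 4 months (adjusted p = 0.0133). The call against 4 months was lost with the mean of the probe sets (0.39, adjusted p = 0.0933), with the bright probe sets alone (0.27, adjusted p = 0.142) and with only the 8 arrays of those ages (adjusted p = 0.0663), and the brightest probe set gave -0.16. Against 6 months the difference was 0.26 (adjusted p = 0.205). Ordered from low to high, the mean levels were 6.24 at 1 month, 6.27 at 4 months, 6.51 at 2 months, 6.52 at 6 months and 6.78 at 10 months, and no neighbours in this order were called.

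The Edn3 probe sets did not move as 1 transcript. Between 1 and 10 months 6 of the 7 rose in mean, by up to 1.07, while the brightest, 5087535, went from 8.80 ± 0.44 to 8.18 ± 0.23 (SD, n = 4). Taken alone, 5087535 fell by 0.62 (limma over all probe sets, adjusted p = 0.0263), beside 13% of all probe sets called lower. Relative to the level of its own gene it fell by 1.16 ± 0.21 (adjusted p = 0.00914), and 1.22% of all probe sets shifted against their gene in that comparison. Across the 20 arrays its level correlated with the mean of the other 6 at r = -0.28, whereas the others had r between 0.51 and 0.80. Of the 4 tested Edn3 probe sets 1 was called higher at 10 months. The called rise of Edn3 therefore held for the median of its probe sets and was opposite in the brightest 1, which would give a fall of 0.62 in place of the rise of 0.55.

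**Figure D2:**
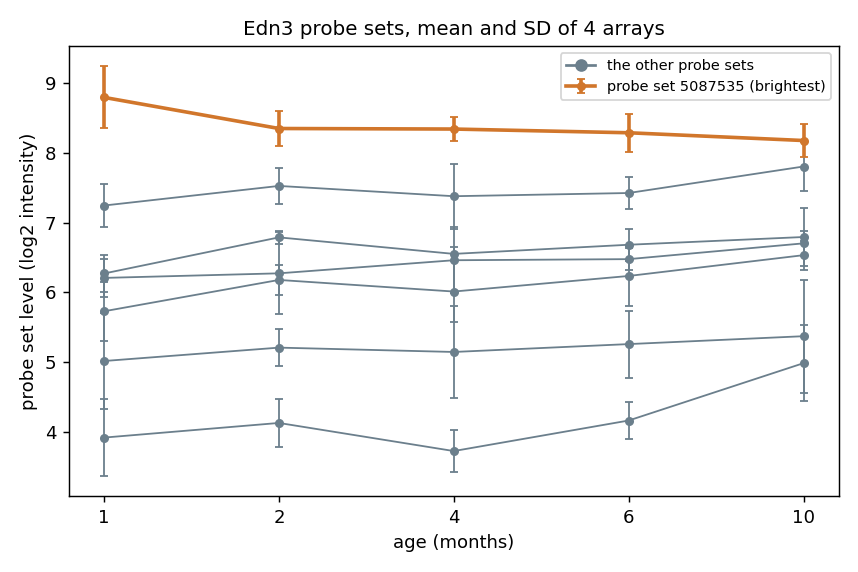
Mean level (log2 intensity, with SD over 4 arrays) of each of the 7 Edn3 probe sets by age in months. The brightest probe set, 5087535 in orange, goes from 8.80 at 1 month to 8.18 at 10 months while the other 6, in grey, end higher than they began.

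Ece1, the gene of the converting enzyme, was bright, above 97.9% of all genes, with all 19 probe sets above the filter. It moved little with age. Its levels were 11.11, 11.07, 10.94 and 11.02 at 1 month, 11.25, 11.12, 11.30 and 11.13 at 2 months, 11.17, 11.22, 11.14 and 11.07 at 6 months, and 10.78, 11.04, 10.91 and 10.88 at 10 months. The 4 mice of 10 months were below all mice of 2 and of 6 months and overlapped those of 1 month and of 4 months (10.86 to 11.24). Ece1 fell by 0.30 ± 0.07 from 2 to 10 months (adjusted p = 0.00494) and by 0.25 ± 0.07 from 6 to 10 months (adjusted p = 0.0233). Against 1 month it was 0.14 lower at 10 months (adjusted p = 0.15) and 0.16 higher at 2 months (adjusted p = 0.21), and neither was called.

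Most of the Ece1 probe sets tracked the others over the 20 arrays. The correlation of a probe set with the mean of the others had a median of 0.81 and ran from 0.52 to 0.92 for 18 of them, with 2 above 0.9, while that of 4545488 was -0.14. All 19 were lower at 10 than at 2 months, by 0.08 to 0.46, and 8 of them were called, beside 7.26% of all probe sets called lower. At 10 against 6 months 18 of 19 were lower and 3 were called, beside 4.55%. Leaving out replicate 1 of 10 months gave -0.20 for the fall from 6 months (adjusted p = 0.0765), and leaving out replicates 1 or 2 of 6 months gave -0.24 and -0.22 (adjusted p = 0.0504 and 0.0657), so that call rested on single arrays. The fall from 2 months was called in all 8 such fits. With the level of the Y-linked genes as a covariate it was -0.23 and was not called (adjusted p = 0.0785); these genes were low on all arrays of 2 months.

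Ednrb encodes the B type endothelin receptor and had the largest change of the members. Levels at 1 month were 7.14, 6.90, 6.87 and 7.09 in the 4 mice. They were 8.07, 7.99, 7.64 and 7.94 at 2 months and 8.14, 8.02, 8.07 and 8.23 at 4 months. All mice of 2 and 4 months were above all mice of 1 month, and these groups overlapped each other. At 6 months the levels were 8.72, 8.32, 8.35 and 8.59, above every mouse of 2 and of 4 months. At 10 months they were 9.18, 9.60, 7.85 and 7.80: replicates 1 and 2 were the highest of the 20 arrays, and replicates 3 and 4 lay below all of 4 and 6 months.

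The rise over 1 month was 0.91 (1.88-fold) at 2 months, 1.12 (2.17-fold) at 4, 1.5 (2.82-fold) at 6 and 1.61 (3.05-fold) at 10 months, each ± 0.28 (SE). Adjusted p-values were 0.0483, 0.0104, 0.00112 and 0.000138, and the 95% intervals were 0.33 to 1.49, 0.53 to 1.70, 0.91 to 2.08 and 1.03 to 2.19. In ascending order the mean levels followed age: 7.0 ± 0.13, 7.91 ± 0.19, 8.11 ± 0.09, 8.49 ± 0.20 and 8.61 ± 0.92 (SD, n = 4). After 2 months no neighbouring ages in this order were called (0.21, 0.38 and 0.11, adjusted p = 0.917, 0.895 and 0.793). The step from 2 to 6 months, 0.59, was not called either (adjusted p = 0.484), although those groups did not overlap. The difference between 10 and 4 months was 0.49 (adjusted p = 0.234), and it rested on single arrays. It was 0.30 and 0.16 without replicates 1 and 2 of 10 months (adjusted p = 0.532 and 0.695) and 0.75 and 0.76 without replicates 3 and 4 (adjusted p = 0.0554 and 0.0482). It was also called with array weights (0.79, adjusted p = 0.0324) and with the pigment epithelium level as a covariate (0.93, adjusted p = 0.0433), described with the marker genes.

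The 2-month call was the least firm. Leaving out any 1 of the 8 arrays of 1 and 2 months gave rises of 0.86 to 1.00 that were not called. The fit shares 1 spread over all ages, which the 10-month arrays widen: without these arrays, an alternative chosen after seeing the data, the rises at 2, 4 and 6 months had adjusted p of 0.000129, 1.02e-05 and 8.65e-07. The shared spread was narrower than that of the 10-month mice themselves (SD 0.92). The SE and interval of the 10-month change were therefore too narrow for that age. The Y-linked genes separated every array of 2 months from every array of 1 month, and with their level as a covariate the 2-month rise was 0.46 (adjusted p = 0.663), while those at 4, 6 and 10 months were 1.04, 1.45 and 1.36 (adjusted p = 0.0207, 0.00191 and 0.0123). At 10 months, where the Y-linked genes were high on replicates 1 and 4, Ednrb was high on replicates 1 and 2.

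The 15 Ednrb probe sets differed widely in brightness, from a mean of 6.05 to 9.76, and 14 were above the filter. Every one had a higher mean at each later age than at 1 month, by 0.01 to 1.33 at 2 months, 0.12 to 1.46 at 4, 0.11 to 1.92 at 6 and 0.70 to 2.06 at 10 months. Of the 14 tested, 0, 9, 13 and 13 were called higher at 2, 4, 6 and 10 months, beside 0.537%, 1.91%, 2.23% and 9.61% of all probe sets. At 2 months 13 of the 14 had an unadjusted p under 0.05 in limma, and the smallest adjusted p was 0.0727. The 4-month count was 3 to 6 when 1 array was left out, and fell to 5 or fewer without any replicate of 1 month or without replicates 2 or 3 of 4 months. At 2 months 12 were called without the arrays of 10 months.

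**Figure D3:**
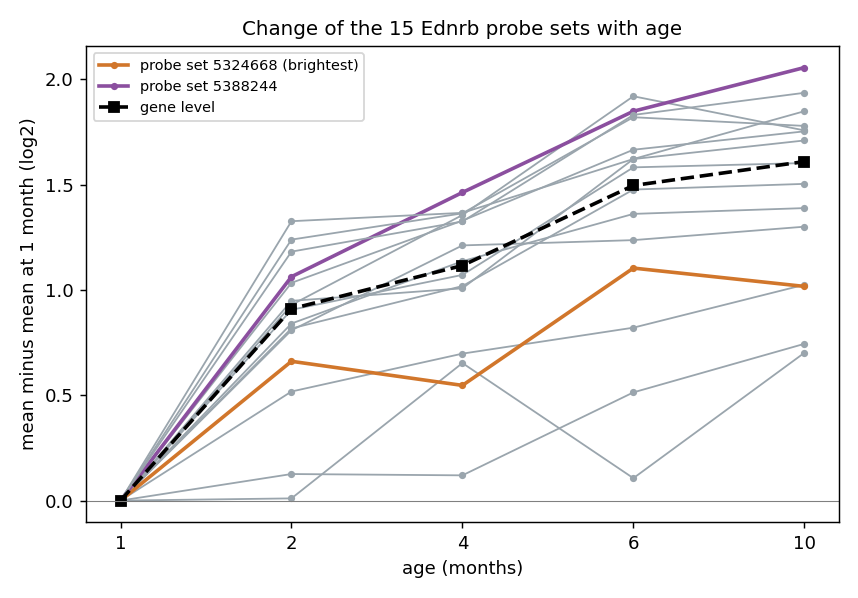
Mean of each of the 15 Ednrb probe sets minus its own mean at 1 month (log2), by age in months, with the gene level as a dashed line. All lines lie above 0 at every later age; the brightest probe set, in orange, rises less than the gene level, to 1.02 at 10 months, and 5388244, in purple, more, to 2.06.

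Within the gene, 12 probe sets tracked the mean of the other probe sets over the 20 arrays at r above 0.9, and the lowest values were 0.43 for 5187136, the dimmest, and 0.64 for 4952438. Probe set 4952438 stood at 6.05 at 1 month and 6.79 at 10 months, a change of 0.74 (adjusted p = 0.0574), the 1 tested probe set not called at 10 months. The brightest, 5324668, rose less than its gene. Its mean was 9.10 at 1 month, 9.65 at 4 and 10.12 at 10 months. Relative to the gene level it fell by 0.57 ± 0.09 at 4 months (adjusted p = 0.0116) and by 0.59 ± 0.09 at 10 months (adjusted p = 0.00246), beside 0.179% and 1.22% of all probe sets that shifted. Read from this probe set alone, the rise at 4 months was 0.55 and was not called (adjusted p = 0.241 over all probe sets). Probe set 5388244 rose 0.45 more than its gene at 10 months (adjusted p = 0.0474), a call lost without any 1 of 7 of the 8 arrays: all of 10 months and replicates 1, 2 and 4 of 1 month, with values of 0.36 to 0.49.

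At 10 months the split between mice ran through the whole gene. On all 15 probe sets replicates 1 and 2 were both above replicates 3 and 4, with a gap between the pairs of 0.29 to 1.88. On 14 of them replicates 1 and 2 were above every mouse of 6 months, and on 13 replicates 3 and 4 were both below the 6-month mean. Probe set 5587960 stood at 10.02, 10.67, 8.71 and 8.45 in the 4 mice. The SD of Ednrb at 10 months, 0.92, was exceeded by 15 of the 11835 genes, whose median SD was 0.12. At 4 months its SD, 0.09, stood above those of 33.7% of genes.

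**Figure D4:**
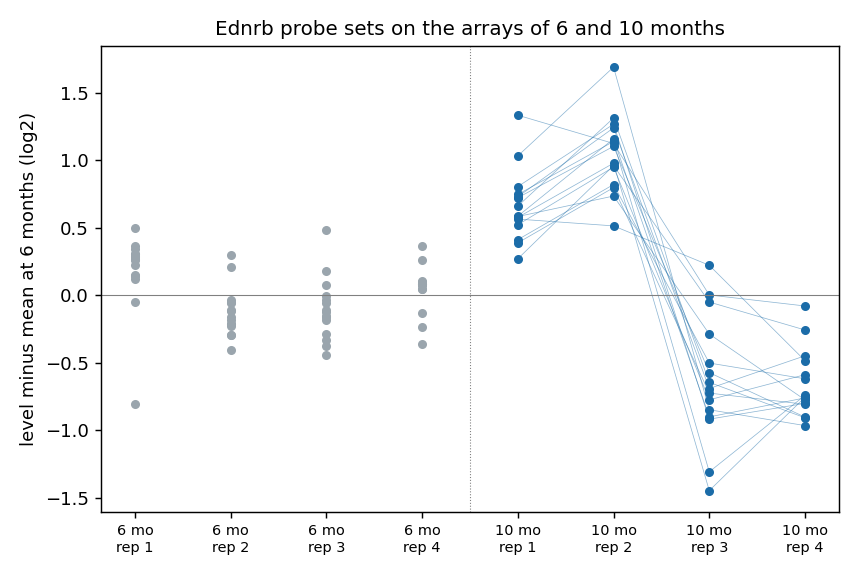
Level of each of the 15 Ednrb probe sets on the arrays of 6 months (grey) and 10 months (blue), minus the mean of that probe set at 6 months (log2); lines join 1 probe set across the 10-month arrays. Replicates 1 and 2 of 10 months lie above the 6-month mean on every probe set, while replicates 3 and 4 lie below it on 13.

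The other members did not follow Ednrb among the 10-month mice. Edn1 stood at 6.28 and 6.26 in the mice with high Ednrb and at 6.56 and 6.38 in the others. Edn3 was highest in replicates 1 and 3, Edn2 in replicate 3, and Ece1 in replicate 2. Over all 20 arrays the correlation of Ednrb with Edn1, Edn2, Edn3 and Ece1 was r = 0.21, 0.24, 0.40 and -0.08, and after each age's mean was subtracted r = -0.37, -0.08, -0.15 and 0.06. The members came from the same 20 libraries, and these values are descriptive.

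Marker genes of Müller glia, the radial glia of the retina and a known site of Ednrb, rose over the same ages. Of 15 tested, 6, 11, 12 and 14 were called higher at 2, 4, 6 and 10 months, beside 3.3%, 6.9%, 7.89% and 20.6% of all genes, and 1 (at 4 months) was called lower, beside 8.26%. Their median changes were 0.24, 0.30, 0.35 and 0.45, beside the Ednrb changes of 0.91, 1.12, 1.5 and 1.61. The largest change of a marker at 10 months was 0.88, for the retinaldehyde dehydrogenase Aldh1a1, beside 1.61 for Ednrb. The lower bound of the Ednrb change, 1.03, rests on 1 spread shared by all ages, while the SD of Ednrb at 10 months was 0.92. On the 10-month arrays the mean of the glial list was 10.63, 10.42, 10.56 and 10.57, so the array with the highest Ednrb had the lowest glial level. Its part in the rise of Ednrb with age was not tested.

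**Figure D5:**
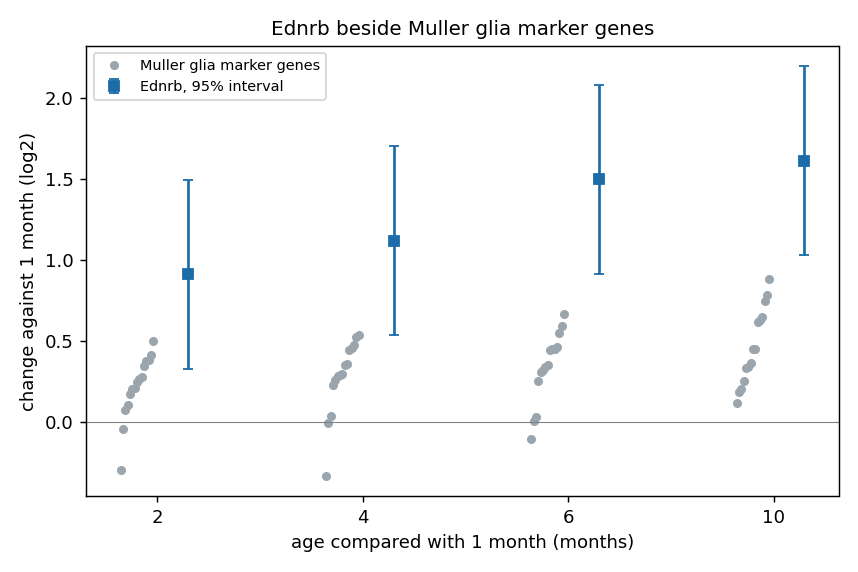
Change against 1 month (log2) of Ednrb, with its 95% interval in blue, and of 15 Müller glia marker genes, in grey, at 2, 4, 6 and 10 months; within an age the grey points are sorted by value. Most markers lie above 0, with medians of 0.24 to 0.45, and Ednrb lies above all of them at each age.

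Genes of other tissues also moved at 10 months. Markers of the pigment epithelium, which lies against the retina and can be carried over in dissection, had a mean level of 8.79, 7.93, 8.76 and 9.24 in replicates 1 to 4, against 8.05 to 8.33 at 1 month. Of 8 tested, 4 were higher and 1 lower at 10 months against 1 month, beside 20.6% and 20.8% of all genes. With that level as a covariate, added after seeing the data, the rises of Edn1 stayed called, while the falls of Ece1 from 2 and 6 months (-0.22 and -0.19, adjusted p = 0.119 and 0.161) and the rise of Edn3 from 4 months (0.43, adjusted p = 0.112) were not. Ednrb was highest in replicate 2, which had the lowest pigment epithelium level of the 4. Rlbp1 was in both the pigment epithelium list and the Müller glia list. Of 8 astrocyte markers, 3 were higher and 1 lower at 10 months, beside the same shares.

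The genes whose levels were most like a member's over the 20 arrays were found by Pearson's r among all genes tested. For Ednrb these were Drd4 (r = 0.90), the dopamine D4 receptor gene, Mcub (0.89), Esrrb (0.86), an orphan nuclear receptor gene, Vat1 (0.84) and Arhgap26 (0.83). Drd4 changed by 1.08, 0.96, 1.05 and 1.31 at 2, 4, 6 and 10 months and stood at 10.38, 11.02, 10.14 and 9.68 on the 10-month arrays. For Edn1 they were Pde9a (0.89), a cyclic GMP phosphodiesterase gene, Kctd6 (0.88), Prkab1 (0.86), Mcm2 (0.86) and Vash2 (0.85). Edn3 was most like Krt34 (0.87), Lbx1 (0.87), Klhdc7a (0.84), C1qtnf6 (0.82) and Marveld1 (0.82), and Ece1 most like Slc24a4 (0.86), Inka2, Mindy2, Zfp809 and Ogdh (0.84 to 0.85).

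Likeness within an age gave other names. When the mean of each age was subtracted, a measure chosen after seeing the data, the genes most like Ednrb were Dio2 (r = 0.92), Irf7 (0.86), Lnx2 (0.85), Oaf (0.84) and Pgbd1 (0.84). Dio2, which encodes the deiodinase that activates thyroid hormone, stood at 9.91, 9.83, 8.53 and 8.52 on the 10-month arrays and at 8.37 to 8.74 on all 16 younger ones. Irf7, an interferon response factor gene, stood at 8.30, 8.61, 7.14 and 7.37. Oaf stood at 9.09, 9.10, 8.63 and 8.43. All 3 therefore had replicates 1 and 2 of 10 months above replicates 3 and 4, as Ednrb did, and were picked for it.

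Among other genes that process or regulate endothelin, 2 of 15 were higher at 4 months, and 4 were higher and 1 lower at 10 months, beside 6.9% of all genes higher and 8.26% lower at 4 months, and 20.6% and 20.8% at 10 months. Smad3, a mediator of transforming growth factor signalling, rose by 0.19 at 4 months and 0.34 at 10 months (adjusted p = 0.0163 and 3.58e-05), and the transcriptional repressor gene Zeb2 by 0.22 and 0.21 (adjusted p = 0.0196 and 0.0115). The AP-1 gene Fos was called lower at 2 and 6 months than at 1 month (-0.58 and -0.51, adjusted p = 0.0159 and 0.0187). The AP-1 genes parted at 10 months: Fos rose by 0.59 ± 0.14 (adjusted p = 0.00261) and Jun fell by 0.48 ± 0.12 (adjusted p = 0.00272). When the Y-linked level was a covariate, neither was called (0.49 and -0.29, adjusted p = 0.0721 and 0.162), and for Jun the brightest probe set gave 0.32 in place of the fall. The Zeb2 rises were not called from the brightest probe set (0.19 and 0.15, adjusted p = 0.165 and 0.158) or with only the 8 arrays compared (adjusted p = 0.0543 and 0.0588). The 4-month rise of Zeb2 was also lost without replicates 1 or 3 of 1 month (adjusted p = 0.0522 and 0.0693), and that of Smad3 without replicate 2 of 1 month or of 4 months (adjusted p = 0.0586 and 0.0517).

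Of 27 genes of receptor signalling, 6 were higher and 2 lower at 4 months, and 12 higher and 3 lower at 10 months. The shares of all genes were 6.9% higher and 8.26% lower at 4 months, and 20.6% and 20.8% at 10 months. The receptor desensitizer gene Arrb1 rose by 0.29 and 0.46 (adjusted p = 0.00138 and 2.8e-06) at 4 and 10 months, and the calcium channel gene Itpr3 by 0.32 and 0.55 (0.00982 and 2.35e-05). The protein kinase C gene Prkca rose by 0.37 at 10 months (adjusted p = 8.34e-05). Its change of 0.18 at 4 months (adjusted p = 0.0493) lost the call under 7 of 14 alternatives, with adjusted p of up to 0.209, among them the replicate block (adjusted p = 0.0683), and in 7 of the 8 fits that left out 1 array (values of 0.13 to 0.25), all but that without replicate 4 of 4 months. Rgs5, a G protein inhibitor gene that also marks pericytes, fell by 0.47 and 0.79 (adjusted p = 0.00291 and 3.99e-06). From the brightest probe set the 4-month changes of Itpr3 and Rgs5 were 0.35 and -0.43 and were not called (adjusted p = 0.165 and 0.0697). The 4-month call of Itpr3 was also lost with only the 8 arrays compared (adjusted p = 0.0575).

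Of 15 genes of photoreceptor injury signalling, the setting in which Edn2 is known, 6 were higher at 4 months and 6 at 10 months, and 1 was lower at 10 months, beside 6.9% and 20.6% of all genes higher and 20.8% lower. Of the metallothionein genes, Mt2 rose by 1.53 ± 0.22 and 2.88 ± 0.22 (adjusted p = 0.000144 and 2e-08) and Mt1 by 0.71 and 1.42. Cntfr, the ciliary neurotrophic factor receptor gene, rose by 0.56 and 0.93, and Serpina3n by 1.07 at 4 months, with 0.23 at 10 months (adjusted p = 0.279). Already at 2 months 8 of the 15 were called higher and 0 lower, beside 3.3% and 5.22% of all genes. Among the 8 were Mt2 (1.38), Mt1 (0.61), Cntfr (0.36) and Serpina3n (0.96).

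Of 20 genes of other vasoactive peptides, their receptors and enzymes, 1 was higher and 1 lower at 4 months, and 7 higher and 3 lower at 10 months, beside 6.9% and 8.26%, and 20.6% and 20.8%, of all genes. At 10 months Agt (angiotensinogen) rose by 0.47, the soluble guanylate cyclase genes Gucy1b1 and Gucy1a1 by 0.40 and 0.33, and Ramp3, which encodes a partner of the adrenomedullin receptor, fell by 0.64 (adjusted p = 3.01e-05, 0.00327, 8.19e-05 and 0.000574). Of 9 other G protein-coupled receptor genes of neural crest and glia, 3 were higher at 4 months, and 3 higher and 1 lower at 10 months, beside those same shares. Adgrg1 rose by 0.33 and 0.57 and the lysophosphatidic acid receptor gene Lpar1 by 0.40 and 0.33 at 4 and 10 months. Among the sphingosine-1-phosphate receptor genes, S1pr1 rose by 0.25 at 4 months (adjusted p = 0.00581), a call lost with the mean of the probe sets (0.17, adjusted p = 0.119). S1pr3 was 0.33 lower at 10 months (adjusted p = 0.0281), a call lost under 5 of 13 alternatives: with the Y-linked covariate the change was -0.07 (adjusted p = 0.753). Single arrays decided that call too: dropping the arrays of replicate 1 or 4 at 1 month, or of replicate 2 or 3 at 10 months, took it away, and the change was -0.21 (adjusted p = 0.121) when replicate 3 at 10 months was dropped. From the brightest probe set, Adgrg1 and S1pr1 at 4 months gave 0.02 and 0.14, and Lpar1 0.21 and 0.17 at 4 and 10 months, none of them called (adjusted p = 0.923, 0.332, 0.557 and 0.527). The Ednrb change at 10 months, 1.61, was larger than that of any of the named genes of these 9.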

How the data were processed

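The RNA of both retinas of each mouse had most ribosomal RNA removed and was copied into sense-strand cDNA, per the labels' protocols. The deposited table holds log2 intensity values of 194293 probe sets on 20 arrays, made with RMA (background correction, quantile normalization, summary per probe set), per the submitters' processing notes. For its software version, for the genome build and for how probe sets were picked the answer is: not given in the sources used here. Of the probe sets, the annotation gave 179496 a single symbol, 1328 several and 13469 none; 2039 old symbols were updated through RefSeq. Probe sets of a gene were joined by median polish. Genes in the dimmest 25% by mean level (5.61) were left out, as were single probe sets below 6.15. Ages were fitted in 1 model with limma 3.58.1 in R 4.3.3 (eBayes, 15 residual degrees of freedom). Shifts were tested on probe set minus gene level, for genes with at least 3 probe sets. The steps were tested on simulated data. Members and gene lists were chosen with earlier results of these data known. Named genes were the members, up to 4 called genes with the largest change in each pathway list, and the 5 genes most like each member called by the F test. The number of arrays limits the precision. Each p-value sets a difference against 1 spread between mice per gene, pooled over all ages by limma.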

Additional observations from a re-analysis of the deposited data

Results flagged for a closer look

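In 3 of the 25 groups of 4 arrays of the members, 1 array lay far from the other 3; chance gives this in about 1 in 20 groups. Edn1 at 4 months was at 5.71 in replicate 2 and at 5.82 to 5.84 in the others. Edn2 at 1 month was at 5.93 in replicate 3 and at 5.64 to 5.67 in the others. Edn3 at 4 months was at 5.84 in replicate 1 and at 6.36 to 6.46 in the others. No group among 50 of the marker lists had such an array, and neither did Ednrb at 10 months, where the mice stood in pairs.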

How the results depend on the processing

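Of the members' changes printed here, 222 of 248 values under alternatives other than leaving out an array kept their direction and side of the threshold, 15 lost the call, 2 gained it and 9 changed sign. With 1 array left out, 171 of 192 were kept, 18 lost the call, 1 gained it and 2 changed sign. Of the 684 values of other named genes, 634 were kept, 49 lost the call and 1 changed sign. Most changes of sign were of differences that were not called. With the brightest probe set of each gene, Edn3 at 10 months was -0.62, -0.16 and -0.11 against 1, 4 and 6 months, Edn2 was -0.038 at 10 and -0.031 at 6 months against 1 month, Ednrb was -0.087 against 6 months, and Jun was 0.32 at 10 months. With Y-linked genes as covariate, Edn2 was -0.39 at 2 and -0.10 at 10 months against 1 month and Ednrb -0.089 at 10 against 6 months. Leaving out 1 array gave Ednrb at 10 against 6 months values of -0.22 to 0.38.

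The number of members called was 0 at 2 against 1 month with the Y-linked or pigment epithelium covariate, the brightest probe set, the mean of probe sets, median polish of bright probe sets, no filter, a trended robust fit, and without each array in turn. At 4 against 1 month it was 0 with the brightest probe set. At 10 against 4 months it was 0 with the brightest probe set, bright probe sets or the dimmest 50% left out, and 1 with the mean or with only the 8 arrays; without 1 array it was 2 to 3. At 10 against 6 months it was 1 with those 3 settings and the pigment covariate, and 1 to 2 without 1 array. In those 3 settings Edn1 fell below the filter on dim genes and was not tested, so they do not show how its calls would fare. With the dimmest 50% left out, which removes all 3 ligands, it was 1 at 10 against 1 month. The F test called 2 with the brightest probe set, bright probe sets, the dimmest 50% left out or the pigment covariate, and 2 to 4 without 1 array. Ednrb probe sets called at 4 months were 5 with the Y-linked covariate or no filter, those at 10 months 6 with that covariate, and those at 2 months 12 without the arrays of 10 months.

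Counts over all genes moved by over 1.5 times in these cases. Against 1 month, 1008 genes at 2 months became 125 (Y-linked covariate), 344 (brightest probe set) and 2372 (array weights), 1795 at 4 months became 840, 3022 and 1049 (8 arrays), and 1942 at 6 months became 953 and 2965. Against 10 months, 2592 genes at 4 months became 1077 (brightest), 1100 (8 arrays) and 1351 (pigment covariate), and 2400 at 6 months became 988 and 1494. Same-numbered arrays did not deviate together on average (mean r = -0.05 over 40 pairs of arrays, 0.02 over pairs of other numbers), so no pairing by number was seen. The r of single same-numbered pairs ran from -0.57 to 0.56. With a replicate block the members called were 1, 1, 1 and 3 at 2, 4, 6 and 10 months, the Ednrb rise at 10 months had adjusted p = 0.000177, no call of a member changed, and that of Prkca at 4 months was lost (adjusted p = 0.0683). Dim signal limits Edn1, Edn2 and Edn3, of whose 24 probe sets 10 were above the filter.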
